A study of Mus musculus with 16 samples.

Results

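The dual-specificity MAP kinase phosphatases were followed in CD11b+ brain cells of mice fed a standard or a malnourished diet, with or without bacterial gavage. The members were taken by name from the table of counts per gene: Dusp1, Dusp2, Dusp4, Dusp5, Dusp6, Dusp7, Dusp8, Dusp10, and Dusp16, 9 of its 24421 rows. All 9 passed the filter on low counts, more than 10 counts in at least 4 libraries, and were tested among 14565 genes. Dusp4 passed only through CON and MAL libraries, 3 of each group, with 0 of 7 MAL-BG libraries above 10 counts. The study used female C57BL/6J mice that were 3 weeks old when the diets began. CON mice received a standard diet (20% protein, 15% fat) and MAL mice an isocaloric malnourished diet (7% protein, 5% fat) for 1 month. MAL-BG mice received the MAL diet and a cocktail of 7 bacteria, an E. coli/Bacteroidales mix, in 3 gavages over 5 days, starting after 2 weeks of diet, and CON and MAL mice were gavaged with PBS. CON had 4 libraries, MAL had 5, and MAL-BG had 7. No group received bacteria on the standard diet, so bacteria and diet are separated here only within the malnourished diet. The labels name no animal for any library, so p-values measure the spread between these libraries. All groups share a warm enzymatic digestion of the brain before the cells were selected on CD11b beads.

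MAP kinases are switched on when an upstream kinase phosphorylates a threonine and a tyrosine in their activation loop. The phosphatases of this family remove both phosphates and so end the signal, and several of their genes are themselves switched on by MAP kinase signaling, as negative feedback. Dusp1, Dusp2, Dusp4, and Dusp5 encode nuclear, inducible enzymes, Dusp6 and Dusp7 encode cytoplasmic enzymes that prefer ERK, and Dusp8, Dusp10, and Dusp16 encode enzymes that prefer the stress kinases JNK and p38. In macrophages and microglia, Dusp1 is best known for shutting off p38 and JNK after a Toll-like receptor has been engaged.

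In MAL-BG libraries the nuclear enzymes Dusp1, Dusp2, and Dusp5 were lower than in CON and in MAL, from 2.11-fold for Dusp1 to 9.13-fold for Dusp5 against CON. Dusp4, the other nuclear enzyme, was also called lower, but it passed the filter only through CON and MAL. Of the enzymes that prefer JNK and p38, Dusp8 was lower than in both groups and Dusp10 than in CON. The ERK phosphatase Dusp6 was 1.87-fold higher than in CON, and Dusp7 and Dusp16 did not pass the test. Expression is given as CPM, counts relative to library sizes scaled by edgeR's TMM method and set to a common total of 1000000. DEGs had an adjusted p under 0.05 (edgeR quasi-likelihood test, Benjamini-Hochberg over the 14565 genes) and an absolute log2 fold change above 0.58. Against CON, 6 of 9 members were lower DEGs and 1 was a higher DEG, beside 21.7% and 11.4% of all genes tested. Against MAL, 5 of 9 were lower DEGs and 0 were higher DEGs, beside 20.2% and 10.2% of all genes. Without Dusp4 the lower DEGs were 5 of 8 members against CON and 4 of 8 against MAL. At an unadjusted p under 0.05 edgeR counted 7 members against CON and 5 against MAL, beside 52.7% and 52.2% of all genes, so the 5 of 9 against MAL is near the background. The DESeq2 test also called 7 and 5, with Dusp4 in both counts, beside 34.5% and 32.3% of all genes. The median log2 fold change of the 9 members was -1.19 against CON and -1.07 against MAL, where the medians of all genes were -0.04 and -0.03, and without Dusp4 it was -1.13 and -0.72. Both comparisons share the same 7 MAL-BG libraries. Between MAL and CON, 0 members were DEGs, as were 0% of all genes, and the smallest adjusted p of any gene was 0.999 (edgeR). At an unadjusted p under 0.05, 4 members differed between MAL and CON (edgeR), beside 1.46% of all genes, namely Dusp2, Dusp6, Dusp8, and Dusp10. In bulk RNA, fewer cells of a type and less RNA per cell cannot be told apart.

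**Figure D1:**
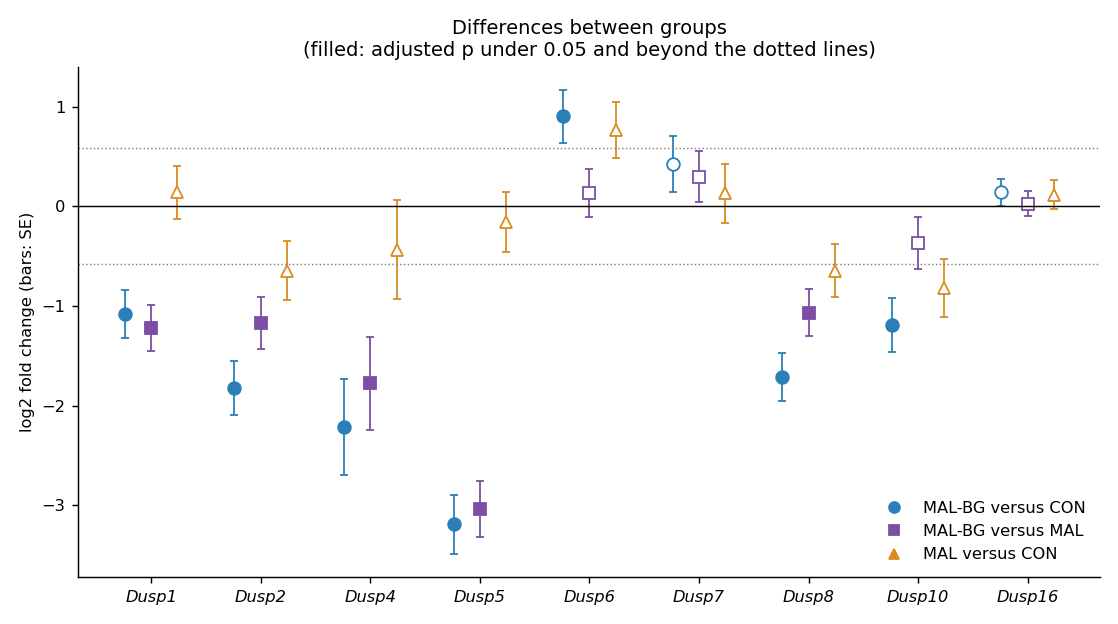
Log2 fold change of each phosphatase gene with its standard error in the 3 comparisons (CON, n = 4; MAL, n = 5; MAL-BG, n = 7). Filled symbols mark DEGs. Dusp5 had the lowest value in both comparisons of MAL-BG (-3.19 and -3.03), and no symbol of MAL versus CON is filled.

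The CON libraries held 10312703 to 13461574 counts, the MAL libraries 10864121 to 12819982, and the MAL-BG libraries, the deepest, 14191791 to 18705202. On the first principal component of the 2000 most variable genes, which held 69.0% of their variance, CON 1, MAL 1, MAL 4, and MAL-BG 3 lay between the other libraries of the groups. Leaving out these 4 together was an alternative chosen after seeing the data. It left 7 members called against CON and 6 against MAL, with Dusp4 in both counts, beside 40.1% and 36.7% of all genes. Markers of microglia, a list of 10 genes, were present in every library. Their summed CPM was 16801 to 27499 in CON, 17472 to 29780 in the MAL group, and 36846 to 50302 in MAL-BG, and 6 of the 10 genes were higher DEGs against CON, 0 lower. The list median against CON was 0.81 on the log2 scale. Of 9 neutrophil markers tested, all 9 were higher DEGs against CON, and their sum ran from 53.0 to 197 CPM in CON and from 183 to 12740 CPM in MAL-BG, with the highest value in MAL-BG 5. Lower DEGs against CON comprised 9 of 10 neuron markers, 6 of 8 astrocyte markers, 10 of 10 choroid plexus markers, and 7 of 8 ependyma markers, with 0 higher DEGs in each list. The summed neuron markers ranged from 80.5 to 363 CPM in CON and from 25.7 to 139 CPM in MAL-BG, and the choroid plexus markers from 13818 to 53681 CPM in CON and from 1762 to 16409 CPM in MAL-BG. Only the erythroid list held markers at 0 in every library (4 of 6). Of the other lists, 3 of 8 monocyte and 1 of 8 border macrophage markers were lower, 2 of 5 lymphocyte markers were higher, and the oligodendrocyte (3 higher, 1 lower of 9) and endothelium and mural cell lists (2 higher, 1 lower of 10) went both ways. The part of these cells in the values of the phosphatases was not tested.

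All 7 MAL-BG libraries lay below all 9 CON and MAL libraries for 2 members, Dusp1 and Dusp5, beside 6.36% of all genes, and for 0 members did they all lie above, beside 6.17% of all genes. Set against the 4 CON libraries alone, MAL-BG lay wholly below for Dusp1, Dusp2, Dusp5, Dusp8, and Dusp10, beside 11.1% of all genes. Dusp4 also lay below, but it passed the filter only through CON and MAL libraries.

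**Figure D2:**
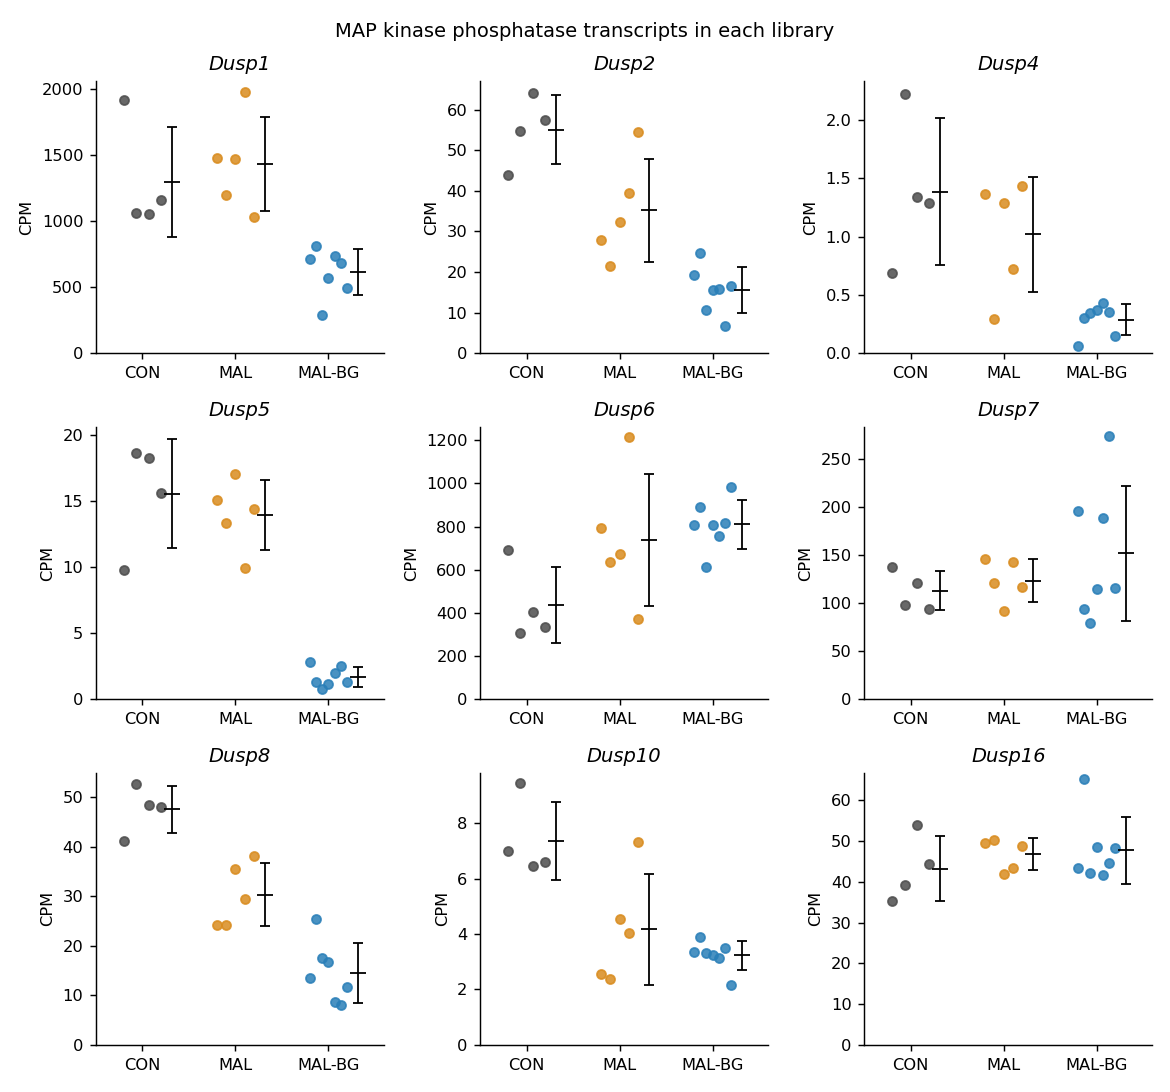
CPM of each phosphatase gene in each library (points), with the mean and SD of each group beside them (bars). The MAL-BG points of Dusp1 (291 to 815 CPM) and Dusp5 (0.758 to 2.83 CPM) lie below every CON and MAL point, and those of Dusp6 (614 to 982 CPM) lie above 3 of the 4 CON points.

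The stretches upstream of 4 members are shown, chosen after their values and motifs were seen: Dusp1 and Dusp5, the members without overlap between MAL-BG and the other libraries, Dusp8, a lower member that holds more than 1 CRE, and Dusp6, the member that was higher than in CON. RefSeq promoter windows on GRCm38.p6 were found for 8 of the 9 members, Dusp4 being the exception. Each line gives bases 250 to 51 before the annotated start, 5′ to 3′ on the strand of the gene. They lie at chr17:26508523-26508722 (minus strand) for Dusp1, chr19:53528895-53529094 (plus strand) for Dusp5, chr7:142095335-142095534 (minus strand) for Dusp8, and chr10:99262981-99263180 (plus strand) for Dusp6. Capitals mark the cAMP response element (CRE, TGACGTCA), the shorter CRE core (TGACG, part of every CRE), the E-box (CACGTG), and the CArG box of serum response factor, on either strand.
Dusp1: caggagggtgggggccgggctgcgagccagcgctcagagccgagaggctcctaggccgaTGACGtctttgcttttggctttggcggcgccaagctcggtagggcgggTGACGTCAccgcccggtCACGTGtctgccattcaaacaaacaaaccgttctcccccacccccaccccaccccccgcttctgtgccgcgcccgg
Dusp5: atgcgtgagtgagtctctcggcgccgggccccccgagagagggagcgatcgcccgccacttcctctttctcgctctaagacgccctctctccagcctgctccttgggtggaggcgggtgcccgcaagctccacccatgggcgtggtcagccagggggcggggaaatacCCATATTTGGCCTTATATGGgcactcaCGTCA
Dusp8: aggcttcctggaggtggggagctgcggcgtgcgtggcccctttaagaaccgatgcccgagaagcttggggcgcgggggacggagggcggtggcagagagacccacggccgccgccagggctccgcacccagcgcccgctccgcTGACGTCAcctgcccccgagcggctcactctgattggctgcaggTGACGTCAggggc
Dusp6: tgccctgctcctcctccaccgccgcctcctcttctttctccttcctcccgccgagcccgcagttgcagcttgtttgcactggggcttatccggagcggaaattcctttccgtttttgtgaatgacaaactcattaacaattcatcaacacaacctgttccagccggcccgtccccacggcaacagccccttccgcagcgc

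Each match is a description of letters in these windows. Dusp1 held a CRE starting 143 bases before its start, a separate core at 191, and an E-box at 126. Dusp8 held a pair of CREs, at 107 and 63 bases before the start, and Dusp5 held adjoining CArG boxes at 82 and 72 and a CRE core at 55. None of these motifs was found in the window of Dusp6, and its window was the only one of the 8 without a GC box (GGGCGG). Over the full windows of 300 bases, the CRE was found in 2 of 8 members and in 1.79% of 32851 mouse promoters, and the CArG box in 1 of 8 and in 1.63%. The CRE core stood in 5 of 8 and in 20.8% of promoters, the E-box in 2 of 8 and in 7.15%, and the GC box in 7 of 8 and in 35.7%. The AP-1 site (TGANTCA), the TATA box (TATAAA), and the core of ETS sites (CCGGAA) were in 0 of 8 members and in 7.81%, 13.6%, and 14.9% of promoters. The Dusp1 and Dusp8 stretches lie in introns of longer GENCODE transcripts of the same genes, which begin further upstream, and the Dusp5 stretch overlaps an antisense RNA, AC137853.2. The window of Dusp16 (chr6:134792579-134792878, minus strand), counted in these shares, lies inside the span of its gene (chr6:134715468-134807063) and not at its upstream end.

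**Figure D3:**
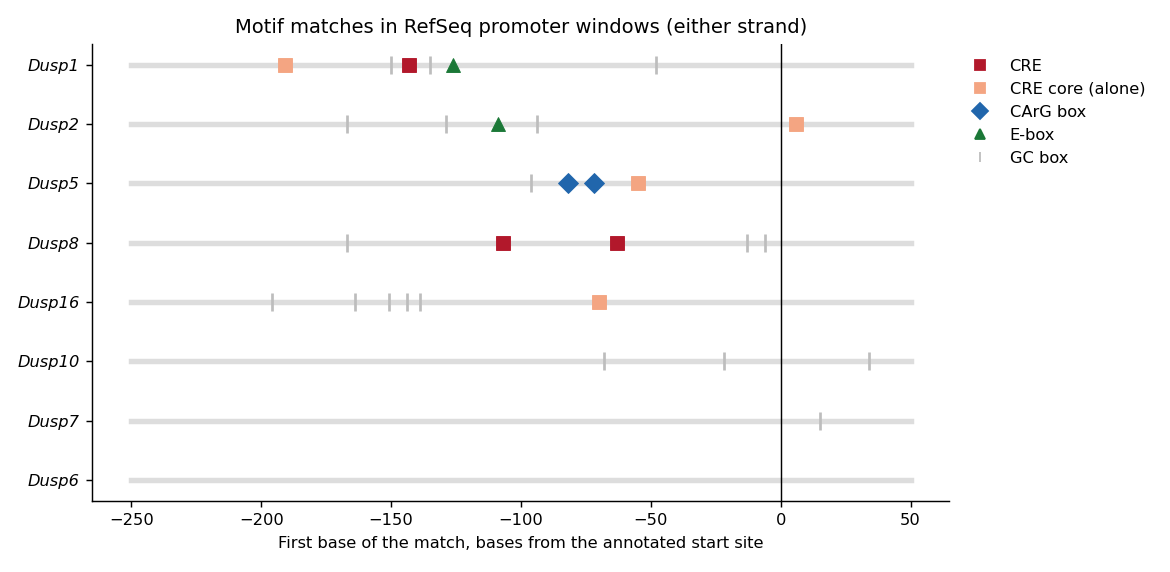
Positions of motif matches in the 300-base RefSeq promoter windows of 8 members, as bases from the annotated start (0, vertical line), on either strand. The CREs of Dusp1 (at -143) and Dusp8 (at -107 and -63) and the CArG boxes of Dusp5 (at -82 and -72) stand out, and the line of Dusp6 is empty.

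Dusp1 encodes the nuclear phosphatase MKP-1, which acts mainly on p38 and JNK, and lies on chromosome 17 (chr17:26505591-26508472, minus strand). Its CPM was 1921, 1066, 1055, and 1161 in the 4 CON libraries and 1481, 1202, 1476, 1978.5, and 1035 in the 5 MAL libraries. MAL-BG libraries ran from 291 (MAL-BG 3) to 815, with a median of 686. Every MAL-BG library lay below every other library, and CON 1 and MAL 4 stood highest. The group means were 1301 ± 416 in CON (SD, n = 4), 1434 ± 358 in MAL (n = 5), and 616 ± 178 in MAL-BG (n = 7). Dusp1 was 2.11-fold lower in MAL-BG than in CON (log2 fold change -1.08, SE 0.244, adjusted p = 0.00215, edgeR) and 2.33-fold lower than in MAL (-1.22, SE 0.231, adjusted p = 6.47e-04). MAL and CON differed by 0.14 on the log2 scale (95% interval -0.42 to 0.71), less than the libraries of either group varied. Without the 4 libraries between the groups the values against CON and MAL were -0.72 and -0.89, still DEGs (adjusted p = 0.00164 and 3.82e-04, edgeR). Annotated exons of Dusp1 overlap exons of Ergic1 on the other strand. The study's methods name a stranded library kit, but the strand option of the counting was not given in the sources used here. If strand was not used in the counting, reads of these partners cannot be told apart there.

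Dusp5, a nuclear enzyme specific for ERK1 and ERK2, had the largest log2 fold change of the 9 members in both comparisons of MAL-BG. It lies on chromosome 19 (chr19:53529145-53541809, plus strand), where an exon of the RNA AC137853.2 overlaps it on the other strand. The CON libraries held 9.75, 18.6, 18.3, and 15.6 CPM and the MAL libraries 15.1, 13.4, 17.0, 9.91, and 14.4 CPM. MAL-BG libraries held 0.758 to 2.83 CPM with a median of 1.30, from 11 to 48 counts each. The lowest of the other 9 libraries, CON 1, was thus far above the highest MAL-BG library. Dusp5 was 9.13-fold lower than in CON (log2 fold change -3.19, SE 0.293, adjusted p = 3.45e-06, edgeR) and 8.19-fold lower than in MAL (-3.03, SE 0.283, adjusted p = 6.37e-06). Within MAL-BG, libraries 1, 5, and 6 (2.83, 2.01, and 2.5 CPM) stood above the other 4 (0.758 to 1.30 CPM).

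Dusp2 encodes the nuclear phosphatase PAC1 of activated blood cells and lies on chromosome 2 (chr2:127336159-127338377, plus strand). It held 43.8, 54.7, 64.2, and 57.4 CPM in CON. MAL libraries held 28, 21.5, 32.3, 39.5, and 54.5 CPM, and MAL-BG libraries 6.77 to 24.6 CPM (median 15.7). MAL-BG lay below all of CON and overlapped only MAL 2 at 21.5 CPM. The means stepped from 55.0 ± 8.45 in CON to 35.2 ± 12.7 in MAL and 15.6 ± 5.74 in MAL-BG (SD, n = 4, 5, and 7). Dusp2 fell by 1.82 on the log2 scale against CON (SE 0.272, adjusted p = 1.15e-04, edgeR) and by 1.17 against MAL (SE 0.259, adjusted p = 0.00193). The step from CON to MAL (-0.65, unadjusted p = 0.0431, edgeR) failed the correction (adjusted p = 0.999), although 4 of 5 MAL libraries lay below all 4 CON libraries.

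Dusp4, the nuclear phosphatase MKP-2, lies on chromosome 8 (chr8:34807610-34819894, plus strand) and was close to the limit of these libraries. It was covered by 24 counts at most, with 9, 24, 17, and 17 counts in CON and 16, 4, 15, 9, and 18 counts in MAL. MAL-BG libraries held 1 to 8 counts, although they were the deepest. As CPM these were 1.39 ± 0.633 in CON, 1.02 ± 0.492 in the MAL group, and 0.289 ± 0.135 in MAL-BG (SD, n = 4, 5, and 7), and MAL-BG overlapped MAL 2 (0.298 CPM) but no CON library. Dusp4 was lower against CON (log2 fold change -2.21, SE 0.479, adjusted p = 0.00158, edgeR) and against MAL (-1.78, SE 0.464, adjusted p = 0.00568). It entered the test through its CON and MAL counts, so its call is no support for the count of members.

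Dusp6 encodes the cytoplasmic phosphatase MKP-3, specific for ERK, and lies on chromosome 10 (chr10:99263231-99267489, plus strand). CON libraries held 691, 307, 402, and 336 CPM, and MAL libraries 794, 636, 674, 1214, and 372 CPM. MAL-BG libraries ran from 614 to 982 CPM with a median of 809. CON 1 fell inside the MAL-BG range and the 3 other CON libraries below it, while MAL 5 lay below and MAL 4 above the MAL-BG range. Dusp6 was 1.87-fold higher in MAL-BG than in CON (434 ± 176 against 811 ± 114 CPM, log2 fold change 0.90, SE 0.268, adjusted p = 0.0119, edgeR). The call rested on CON 2: without it the difference was 0.76 (adjusted p = 0.0506, edgeR), with adjusted p-values between 5.96e-05 and 0.0506 over the alternatives. Against MAL (738 ± 308 CPM) the log2 fold change was 0.14 (95% interval -0.38 to 0.65, adjusted p = 0.669, edgeR). MAL stood above CON by 0.77 (unadjusted p = 0.0145, edgeR), which failed the correction. Without the 4 libraries between the groups, Dusp6 rose by 1.26 against CON (adjusted p = 5.96e-05, edgeR). Against MAL it then rose by 0.583 (adjusted p = 0.012, edgeR), just past the threshold of 0.58. The 6 MAL-BG libraries left (756 to 982 CPM) were above the 3 CON (307 to 402 CPM) and the 3 MAL libraries (372 to 674 CPM). The libraries left out held its highest CON value (CON 1, 691 CPM) and its highest MAL values (MAL 4, 1214 CPM, and MAL 1, 794 CPM). They also held its lowest MAL-BG value (MAL-BG 3, 614 CPM), so this lack of overlap rests on the choice of libraries. The share of all genes without overlap in the libraries left was not computed. The other calls of the 9 members were unaltered by that choice. Microglia markers moved the same way as Dusp6 against CON, with a list median of 0.81. The list median was 0.82 against MAL, where Dusp6 was at 0.14. Between MAL and CON it was 0.07, where Dusp6 was at 0.77. The part of microglia in the values of Dusp6 was not tested.

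Dusp7 encodes the other cytoplasmic ERK phosphatase and lies on chromosome 9 (chr9:106368560-106375724, plus strand). It held 93.8 to 138 CPM in CON, 91.5 to 145 CPM in MAL, and 79.2 to 274 CPM in MAL-BG. Its spread in MAL-BG exceeded that of the other groups, with SDs of 20.5, 22.0, and 70.1 CPM. MAL-BG 1, 5, and 6 held 196, 189, and 274 CPM, above every CON and MAL library, whereas the other 4 held 79.2 to 116 CPM. The log2 fold changes were 0.43 against CON (95% interval -0.16 to 1.01, adjusted p = 0.223, edgeR) and 0.30 against MAL (-0.25 to 0.84, adjusted p = 0.361). Dusp9, which encodes the remaining cytoplasmic phosphatase of this class, did not pass the filter on low counts.

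Dusp8 encodes a phosphatase of JNK and p38 known mainly from brain and heart and lies on chromosome 7 (chr7:142079487-142095907, minus strand). It held 41.1, 52.7, 48.3, and 47.9 CPM in CON. The MAL libraries held 24.3, 24.2, 35.5, 29.4, and 38.1 CPM, and the MAL-BG libraries 8.08 to 25.4 CPM (median 13.4). MAL lay wholly below CON for Dusp8 alone of the 9 members looked at, beside 0.302% of all genes. MAL-BG lay wholly below CON, with 1 library, MAL-BG 2, reaching into MAL. Dusp8 was 3.28-fold lower than in CON (log2 fold change -1.71, SE 0.243, adjusted p = 7.82e-05, edgeR) and 2.09-fold lower than in MAL (-1.07, SE 0.232, adjusted p = 0.00175). The fall from CON to MAL was 0.65 on the log2 scale (unadjusted p = 0.0257, adjusted p = 0.999, edgeR). Neuron markers moved the same way (9 of 10 lower DEGs against CON), and their part in the values of Dusp8 was not tested. Gm32786 overlaps Dusp8 on the other strand, so these counts carry the same reserve as those of Dusp1.

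Dusp10 encodes MKP-5, a phosphatase of JNK and p38, and lies on chromosome 1 (chr1:184034381-184075636, plus strand). It held 6.99, 9.46, 6.46, and 6.59 CPM in CON and 2.55, 2.39, 4.56, 4.03, and 7.33 CPM in MAL. MAL-BG libraries lay between 2.15 and 3.91 CPM (median 3.31), all below CON and overlapping MAL. Dusp10 fell by 1.19 on the log2 scale against CON (SE 0.269, adjusted p = 0.00221, edgeR). Against MAL the value was -0.37 (95% interval -0.91 to 0.18, adjusted p = 0.259, edgeR), and MAL stood 0.82 below CON (unadjusted p = 0.0126, edgeR) without passing the correction. MAL 5 was the exception in its group, within the CON range.

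Dusp16, the phosphatase MKP-7 that prefers JNK, had the smallest log2 fold changes of the 9 members in both comparisons of MAL-BG. It lies on chromosome 6 (chr6:134715468-134807063, minus strand) and held 35.3 to 54.0 CPM in CON, 42 to 50.2 CPM in MAL, and 41.7 to 65.3 CPM in MAL-BG. The 3 ranges overlapped. Its log2 fold changes were 0.14 against CON (95% interval -0.15 to 0.43, adjusted p = 0.416, edgeR) and 0.03 against MAL (-0.24 to 0.29, adjusted p = 0.881). With libraries scaled by their mean log2 CPM and offsets for gene length and GC content, which moved the median of all genes to 0.19, Dusp16 was a higher DEG against CON (0.60, adjusted p = 0.0039, edgeR, and from 0.0039 to 0.845 over the alternatives).

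Levels of different members were compared as CPM per kilobase of the longest protein coding transcript. By its mean on this length, Dusp1 ranked first in every group, at 654 ± 209 in CON, 721 ± 180 in the MAL group, and 309 ± 89.2 in MAL-BG (SD of CPM per kilobase, n = 4, 5, and 7). Dusp6 followed at 155 ± 63.0, 264 ± 110, and 290 ± 40.7 (SD of CPM per kilobase). In CON and MAL the ranges of these neighbours did not overlap. In MAL-BG they did, and Dusp1 exceeded Dusp6 in only 4 of 7 libraries. With the union of all exons as the length, the order in MAL-BG turned, with Dusp6 above Dusp1 in 7 of 7 libraries (means of 259 and 186 CPM per kilobase), and it stayed in all CON and MAL libraries. That length also exchanged Dusp16 with Dusp5 in CON and with Dusp8 in MAL. By their means Dusp7 and Dusp2 came next in every group, with overlapping ranges in CON and MAL but not in MAL-BG. Dusp7 was above Dusp2 in only 1 of 4 CON libraries, in 5 of 5 MAL libraries, and in 7 of 7 MAL-BG libraries. Dusp8, Dusp16, and Dusp5 followed in CON with overlapping ranges between neighbours. Dusp4 was last throughout. Dusp5, above Dusp10 in all 4 CON and all 5 MAL libraries, stood below it in all 7 MAL-BG libraries.

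The 9 members summed to 906 ± 267 CPM per kilobase in CON, 1068 ± 289 in the MAL group, and 670 ± 126 in MAL-BG (SD). Dusp1 made up 71.9 ± 2.79% of this sum in CON, 67.8 ± 1.96% in the MAL group, and 45.3 ± 6.31% in MAL-BG. The share of Dusp6 was 16.8 ± 2.15% in CON, 24 ± 4.04% in the MAL group, and 44.1 ± 6.74% in MAL-BG (SD, n = 4, 5, and 7). The ratio of Dusp6 to Dusp1 per kilobase was 0.205 to 0.271 in CON, 0.256 to 0.437 in the MAL group, and 0.733 to 1.5 in MAL-BG. The ratio of every MAL-BG library was above that of every other library, and MAL 5 (0.256) alone of the MAL libraries lay within the CON range. MAL-BG 3 (1.5) and MAL-BG 7 (1.40) were the highest. Dusp1 alone already lay lower in every MAL-BG library than in every other library, while Dusp6 alone overlapped both CON and MAL. The separation of the ratio therefore largely restates that of Dusp1. The share of gene pairs with such a separation was not computed. With the union of all exons as the length, the shares were 63.4%, 58.7%, and 35.9% for Dusp1 and 22.0%, 30.8%, and 51.6% for Dusp6.

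**Figure D4:**
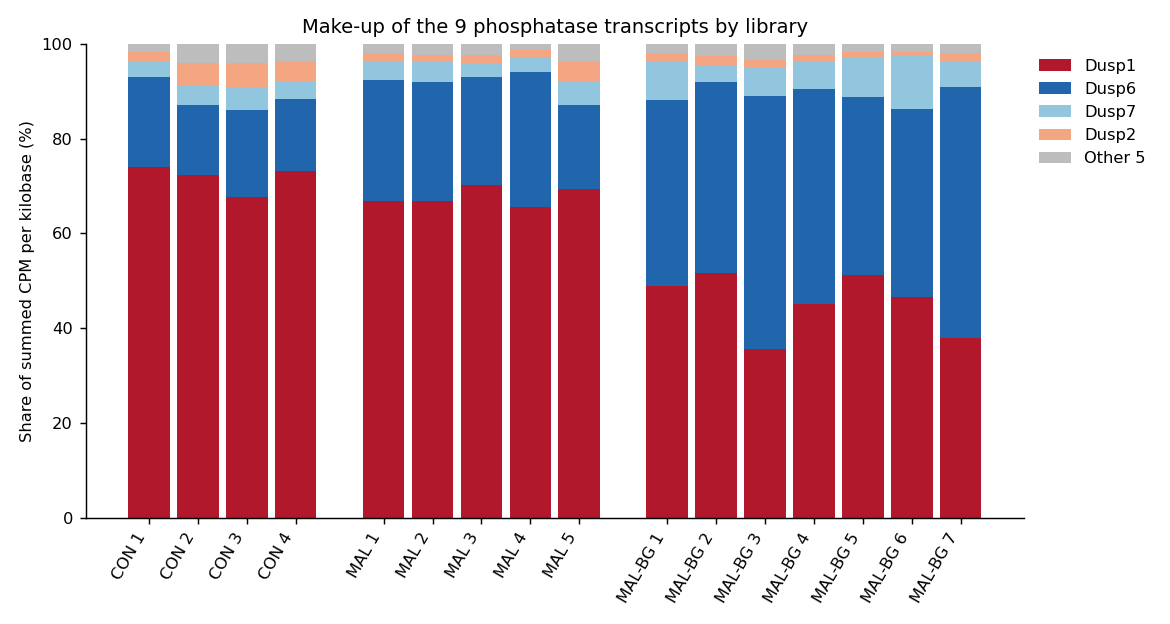
Share of each phosphatase in the summed CPM per kilobase of the 9 members, one bar per library. Dusp1 (dark red) takes 65.5% or more of every CON and MAL bar and 35.6% to 51.6% of the MAL-BG bars, where Dusp6 (dark blue) takes most of the rest.

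After each group's mean was subtracted, the genes most like each member over the 16 libraries were found among 11285 other genes (11286 for Dusp4 and Dusp10) with a mean of at least 5 CPM. These correlations share libraries, depth, and cell composition and are descriptions only. Dusp1 went with Socs3, Rhob, and Fos (Pearson r 0.965, 0.960, and 0.933), Dusp2 with Nr4a1, Bcl6, and Mapkapk2 (0.889, 0.868, and 0.861), and Dusp10 with Maff, Arid5a, and Kdm6b (0.972, 0.83, and 0.809). Dusp6 went with Ctla2b, Txnip, and Rgs1 (0.948, 0.925, and 0.922). The neighbours of Dusp7 were Mto1, Akr1b10, and Zfp385a (0.972, 0.970, and 0.969), and those of Dusp5 were Tmem5, Szrd1, and Arl1 (0.957, 0.901, and 0.901). Dusp8 was closest to Smarca4, Hivep2, and Bcl2 (0.882, 0.875, and 0.874), Dusp16 to E130012A19Rik, Rnf187, and Map7d1 (0.900, 0.895, and 0.825), and Dusp4, at its low counts, to Uri1, Eml5, and Fam135a (0.757, 0.746, and 0.745). Among the members themselves the highest r within groups joined Dusp1 and Dusp6 (0.703), although against CON Dusp1 was lower and Dusp6 higher in MAL-BG. For both genes CON 1 and MAL 4 held the highest values of their groups and MAL-BG 3 the lowest of its group. This r was not computed without them. The lowest r was that of Dusp7 and Dusp8 (-0.786).

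The kinases that these phosphatases act on were counted from lists of pathway genes. Of all genes tested, 11.4% were higher and 21.7% lower DEGs against CON, and 10.2% and 20.2% against MAL. The counts of DEGs in these lists are to be read beside those shares. With the 4 libraries between the groups left out, 40.1% of all genes were DEGs against CON and 36.7% against MAL, both directions together. Counts under that choice are to be read beside these larger shares. Among 14 MAP kinases, 2 were higher and 5 lower DEGs against CON, and the median of the list was 0.05 on the log2 scale. Mapk3, which encodes ERK1, rose from 208 ± 21.9 CPM in CON and 195 ± 27.9 CPM in MAL to 339 ± 65.7 CPM in MAL-BG (SD; log2 fold changes 0.71 and 0.80, adjusted p = 0.00134 and 3.51e-04, edgeR). Mapk13, the p38 delta kinase, was the other higher DEG (2.01 against CON), with 0.832 to 23.0 CPM in MAL-BG, and its calls were lost without the 4 libraries between the groups (adjusted p = 0.082 against CON and 0.0586 against MAL, edgeR). The lower DEGs were Mapk4 (-2.84), Mapk6 (-1.26), Mapk9 (-0.67), Mapk10 (-2.93), and Mapk15 (-1.81), where Mapk9 and Mapk10 encode JNK2 and JNK3. The main p38 kinase gene Mapk14 had values of 0.09 against CON and 0.00 against MAL. Of 7 MAP kinase kinases, 0 were DEGs in either comparison (edgeR), with Map2k1 at 0.07 and Map2k2 at 0.28 against CON. At an unadjusted p under 0.05 edgeR counted 2 of these 7 against CON and 3 against MAL, beside 52.7% and 52.2% of all genes. All of these were below the fold threshold. When the 4 libraries between the groups were left out, 1 of the 7 was a higher DEG against MAL.

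Downstream of ERK, 1 of 8 output genes was a higher and 2 were lower DEGs against CON (median -0.49), and 1 was higher and 1 lower against MAL (median -0.05). Etv5, a transcription factor induced by ERK, rose from 80.2 ± 12.7 CPM in CON and 76.5 ± 16 CPM in MAL to 139 ± 24.8 CPM in MAL-BG (SD; 0.79 and 0.86, adjusted p = 0.00136 and 4.60e-04, edgeR). Phlda1 fell (-1.02 and -0.79), Spry2 fell against CON (-0.77) with a value of -0.22 against MAL, and Ccnd1 had values of 0.22 and 0.24. When the 4 libraries between the groups were left out, 1 output gene was higher and 4 were lower DEGs against CON. Under that choice 40.1% of all genes were DEGs against CON and 36.7% against MAL, both directions together. Against MAL 1 output gene was then higher and 3 were lower, and Spry2 became a DEG (-0.59). Of 23 early response genes, which like Dusp1 are switched on within minutes of a stimulus, 10 were lower DEGs and 0 higher against CON (median -0.48), and 12 were lower and 1 higher against MAL (median -0.72). Fos, a neighbour of Dusp1, had values of -0.46 against CON and -0.87 against MAL, the latter a DEG, and Nr4a1, a neighbour of Dusp2, fell in both (-1.34 and -0.98). Leaving out the 4 libraries between the groups gave 3 higher and 9 lower DEGs among the early response genes against CON, beside the same larger shares of all genes. Against MAL it gave 2 higher and 9 lower, and Fos lost its call (-0.54). Jun and Zfp36 had the highest CPM of this list and were no DEGs (-0.19 and -0.29 against CON).

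Of 7 glucocorticoid-responsive genes, 1 was higher and 4 were lower against CON, with Sgk1 at 0.88 (adjusted p = 0.00295, edgeR) and Tsc22d3 at -0.55 (adjusted p = 0.125). The remaining lists had medians between -0.33 and -0.03 against CON. Higher and lower DEGs against CON numbered 1 and 7 of 20 MAP kinase kinase kinases (Taok2 -0.12, Taok1 -0.33), 0 and 3 of 11 MAP kinase activated kinases (Rps6ka1 0.30, Mknk2 -0.81), and 2 and 5 of 13 MAP kinase regulated transcription factors (Mef2a -0.33, Mef2c 0.77). They numbered 1 and 4 of 16 other inhibitors of the pathway (Pea15a -0.08, Spred1 0.22) and 3 and 3 of 13 other dual-specificity phosphatases (Dusp11 -0.06, Dusp3 -0.39). Against CON the median of the members without Dusp4 was -1.13 and that of the glucocorticoid-responsive genes -0.92. Against MAL these medians were -0.72 and -1.07.

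**Figure D5:**
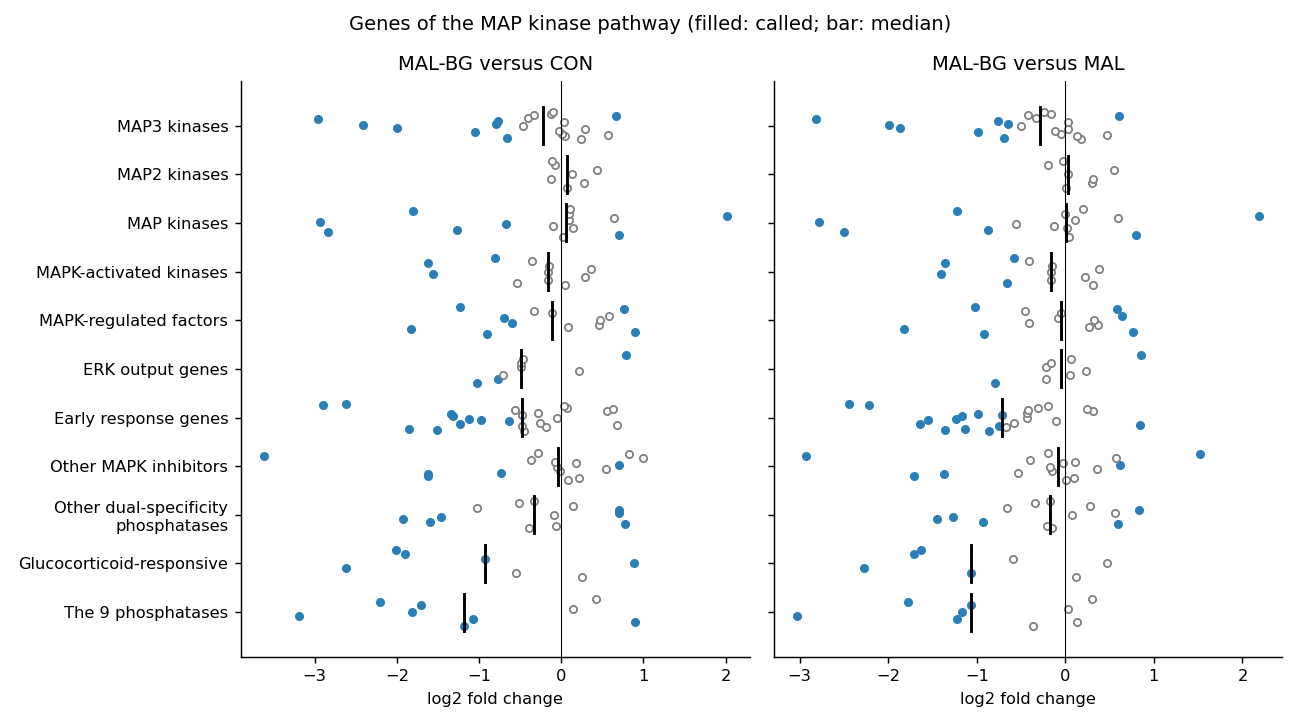
Log2 fold change of every tested gene of 10 pathway lists and of the 9 phosphatases (points; filled, DEGs) in both comparisons of MAL-BG, with the median of each list (vertical bar). The 7 MAP kinase kinases hold no filled point. The 9 phosphatases include Dusp4, which passed the filter only through CON and MAL. Their median lies furthest left in the left panel (-1.19 against CON, -1.13 without Dusp4). In the right panel their median is level with that of the glucocorticoid-responsive genes (both -1.07 against MAL), and it is -0.72 without Dusp4.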

How the data were processed

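RNA from CD11b+ brain cells, isolated with magnetic beads from cortical brain tissue per the labels and whole cerebra per the study's methods, was sequenced in 16 libraries. Per the study's methods and the submitters' processing notes, the authors aligned reads to GRCm38.p6 with STAR and counted them per gene with HTSeq. The notes give HTSeq version 2.5, and the study's methods give a different version. The counting mode and annotation were not given in the sources used here. The deposited values are raw counts for 24421 rows, 27 with names like dates, and 2 names stand on several rows. Columns carried the group and a running number, which was used only as a name, and 0 columns were left unused. Counting error is smallest for the deepest libraries, and intervals of log2 fold changes cover the spread between libraries.

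Counts were tested with edgeR 4.0.16 (R 4.3.3, limma 3.58.1): genes above 10 counts in 4 or more libraries, TMM scaling, and the quasi-likelihood test with all 16 libraries in 1 fit, so that groups share 1 estimate of the spread, with Benjamini-Hochberg adjustment over 14565 genes. Log2 CPM used a prior count of 2. DESeq2 1.42.0 was an alternative, beside other scalings (size factors, upper quartile, mean log2 CPM with offsets for length and GC content, known for 99.2% of genes tested), no filter and a stricter filter, fits of 2 groups, thinned counts, no fold threshold, and leaving out each library. Scripts were tested on simulated data. Replicates differed by more than sampling noise (smallest chi-square per degree of freedom 9.57). The study's model held a batch term, which was not used here because no label ties a column to a batch, so the part of batch in the differences was not tested.

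The members and gene lists were chosen with earlier results of these data known. All 9 members were named, with the 2 genes of highest mean CPM in each pathway list, any tested MAP kinase, MAP kinase kinase, or ERK output gene, and the 3 genes most correlated with each member. Promoters came from RefSeq (GRCm38.p6) and were searched on both strands, and transcript lengths and overlapping exons came from the gene annotation of that build.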

Additional observations from a re-analysis of the deposited data

Results flagged for a closer look

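A library far from the others of its group was found in 2 of the 27 groups examined (9 members in CON, MAL, and MAL-BG), where chance flags about 1 in 20 groups. Dusp1 stood at 1921.1 CPM in CON 1, against 1055 to 1161 CPM in the other CON libraries. Dusp16 stood at 65.3 CPM in MAL-BG 2, against 41.7 to 48.5 CPM in the other MAL-BG libraries.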

How the results depend on the processing

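Each member was recomputed under 25 alternatives. Over the 3 comparisons, 663 values kept their direction and their side of the threshold, 6 turned sign, 2 became calls, and 1 call was lost. Counts of members called ran from 6 to 8 against CON and from 4 to 6 against MAL, with 6 and 4 under the stricter filter, which did not test Dusp4. Over the same alternatives the share of all genes called ran from 26.4% to 40.1% against CON and from 24.5% to 36.7% against MAL. Without 1 library at a time they ran from 6 to 7 and from 5 to 5, and from 0 to 0 for MAL versus CON. Members with no overlap numbered 2 to 4 without 1 library, with 4 without MAL 2 (Dusp2 and Dusp4 added) or MAL-BG 2 (Dusp2 and Dusp8 added). The share of all genes with no overlap was not computed without 1 library, so these counts have no background beside them. Dusp4 passed the filter only through CON and MAL libraries. The shares of Dusp1 ran from 71.1% to 73.2% in CON, 67.2% to 68.3% in MAL, and 44.2% to 46.9% in MAL-BG without 1 library, and those of Dusp6 from 16.1% to 17.5%, 22.8% to 25.5%, and 42.5% to 45.2%. With the union of exons as length, chosen after seeing the data, they were 63.4%, 58.7%, and 35.9% for Dusp1 and 22.0%, 30.8%, and 51.6% for Dusp6. Mean log2 CPM scaling with length and GC offsets moved the median of all genes to 0.19 and 0.18 and the share of higher calls from 34.4% to 57.6% against CON and from 33.4% to 57.0% against MAL.

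Signs turned only for values that were not called. Without 1 library at a time, Dusp16 against MAL ran from -0.020 to 0.086, Dusp6 against MAL from -0.039 to 0.38, and Dusp1 in MAL versus CON from -0.0042 to 0.38. Against CON, Dusp11 ran from -0.18 to 0.046, Taok2 from -0.20 to 0.020, Jun from -0.36 to 0.27, Zfp36 from -0.42 to 0.038, Mapk14 from -0.045 to 0.23, and Map2k1 from -0.012 to 0.20. Against MAL, Mapk14 ran from -0.14 to 0.10, Map2k1 from -0.083 to 0.12, and Spred1 from -0.0048 to 0.19. Upper-quartile scaling gave -0.00039 for Dusp16, -0.027 for Mapk14, and -0.022 for Map2k1 against MAL. The stricter filter gave -0.013 for Mapk14 and -0.0099 for Map2k1, and the fit of 2 groups -0.00066 for Mapk14. Under the length and GC offsets, values against CON were 0.41 for Dusp11, 0.36 for Taok2, 0.37 for Taok1, 0.039 for Pea15a, 0.047 for Mef2a, and 0.042 for Jun, and against MAL 0.29 for Dusp11, 0.22 for Dusp3, 0.27 for Taok2, and 0.32 for Taok1. Without the 4 libraries between the groups, values against CON were 0.081 for Dusp11, 0.042 for Taok2, 0.40 for Jun, 0.13 for Zfp36, and 2.2e-05 for Tsc22d3. The cause was not tested. No paired analysis was possible because the columns carry only running numbers that match no sample title. Depth limits Dusp4 and Dusp5 most, at 1 to 8 and 11 to 48 counts in MAL-BG.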
